A study of Mus musculus with 6 samples.

Results

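The genes described here are 10 imprinted genes: H19 and Igf2, which lie side by side on mouse chromosome 7; Dlk1, Meg3, Rtl1, Rian and Mirg of the Dlk1-Meg3 cluster on chromosome 12; and Peg3, Plagl1 and Grb10, which lie elsewhere. They were found by gene symbol among the 55401 gene identifiers of the count table, and all 10 had a row. H19 and Rtl1 were named in the choice as genes that rose with miR-497, so differences of the 10 genes between the groups are given as a description, without a test. RNA came from ADC106, a mouse line of angiosarcoma, which is a malignant tumour with features of vessel-lining cells. The control group, labelled WT and NC, had received a microRNA mimic labelled NC. The other group, labelled as overexpressing miR-497, had received an miR-497 mimic, a synthetic short RNA that acts as the mature microRNA does. Both mimics were given at 12.5 nM, RNA was taken on day 3, and each group had 3 poly(A)-enriched libraries. All libraries came from this line, the labels do not say whether they came from separate cultures, and p-values given for other genes therefore measure only the spread between these libraries. Untransfected cells were not analysed here.

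An imprinted gene is expressed mainly from the copy inherited from one parent. At H19-Igf2, the maternal chromosome expresses H19, an abundant noncoding RNA of fetal tissues, and the paternal chromosome expresses Igf2, a fetal growth factor; binding of Ctcf to the unmethylated control region keeps shared enhancers away from Igf2. At Dlk1-Meg3, the paternal copy expresses Dlk1, a membrane protein related to Notch ligands, and Rtl1, a protein derived from a retrotransposon that is needed in the placenta and its fetal vessels. The maternal copy expresses the noncoding RNAs Meg3, Rian and Mirg, together with an antisense transcript of Rtl1 whose microRNAs pair fully with the Rtl1 mRNA. Peg3 and Plagl1 encode zinc-finger proteins expressed from the paternal copy, and Plagl1 is a known activator of other imprinted genes. Grb10 encodes an adaptor that restrains signalling from the insulin and IGF1 receptors and is maternally expressed in most tissues.

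The mature sequences of the mimicked microRNA and of its relatives are shown first, because they share the seed (capitals, bases 2 to 8) by which a transcript is recognised. They are the RefSeq sequences of the GRCm38.p6 assembly, 5′ to 3′. The sequence of the mimic itself was not given in the sources used here.
miR-497a-5p: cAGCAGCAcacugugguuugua
miR-195a-5p: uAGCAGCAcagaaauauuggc
miR-15a-5p: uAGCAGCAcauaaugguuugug
miR-16-5p: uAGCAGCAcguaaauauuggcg

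The next sequences are the microRNAs carried by H19 and those antisense to Rtl1, the genes named in the choice. The miR-675 hairpin lies inside H19, and both of its mature arms are contained in the longest H19 transcript of 2286 bases, at positions 1011 to 1032 and 1045 to 1066. Opposite Rtl1, 6 hairpins give 11 mature microRNAs in the RefSeq table, and all 11 had a full complement in the 6358-base Rtl1 transcript, within the coding sequence. The arms below are shown with the seed in capitals. None of those printed shares its seed with miR-497a-5p or with another of those printed.
miR-675-5p (H19): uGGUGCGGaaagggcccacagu
miR-675-3p (H19): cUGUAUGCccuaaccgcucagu
miR-127-3p (antisense to Rtl1): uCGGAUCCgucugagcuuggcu
miR-136-5p (antisense to Rtl1): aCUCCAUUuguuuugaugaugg
miR-431-3p (antisense to Rtl1): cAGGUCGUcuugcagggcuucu
miR-433-3p (antisense to Rtl1): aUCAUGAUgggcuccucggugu
miR-434-3p (antisense to Rtl1): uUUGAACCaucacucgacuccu
miR-432 (antisense to Rtl1): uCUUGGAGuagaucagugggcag

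To show the pairing on the mRNA side, the Rtl1 bases that complement the first 2 of these antisense microRNAs are printed with the match to the seed in capitals. They lie at positions 2642 to 2663 and 199 to 220 of the Rtl1 transcript.
Rtl1 site of miR-127-3p: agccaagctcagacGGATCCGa
Rtl1 site of miR-136-5p: ccatcatcaaaacaAATGGAGt
The table has rows for 28 microRNA genes within the bodies of the 10 genes, and all 28 had 0 counts in all 6 libraries. Poly(A)-enriched libraries do not capture mature microRNAs, so these rows say nothing about their levels.

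The 6 libraries held between 25777676 and 36159499 counts. Of 14661 genes that passed the filter on low counts, 49.8% differed between the groups at an adjusted p under 0.05 in edgeR's quasi-likelihood test, 23.8% higher and 26.0% lower with miR-497. All 14 endothelial markers were tested, and their summed level was 10271 to 10969 CPM (counts scaled to the library total) with NC and 9874 to 10345 CPM with miR-497. Single endothelial markers differed in opposite directions within this sum: mean CPM went from 3554 to 2470.6 for Pecam1 and from 211 to 109.6 for Egfl7, and from 373 to 764 for Emcn and from 179 to 362 for Cldn5. Of the 12 skeletal muscle markers, 9 stayed under 1 CPM in every library, with Myod1, Myog, Myf5 and Acta1 at 0, and the 7 epithelial markers all stayed under 1 CPM. The summed fibroblast and smooth muscle markers, led by Col1a2, Col1a1 and Acta2, were higher in every miR-497 library, at 348 to 369 CPM with NC and 525 to 622 CPM with miR-497; Lum was at 0 and Myh11 under 1 CPM. Other genes of this list were lower, with mean CPM of 27.8 and 16.03 for Col3a1 and of 52.8 and 40.8 for Pdgfrb with NC and miR-497. The 8 leukocyte markers summed to 9.53 to 10.7 CPM with NC and 15.8 to 21.1 CPM with miR-497, with Itgam and Cd3e among those at 0. The difference lay in Cd68 (mean 8.25 and 17.5 CPM), while Csf1r (1.06 and 0.909 CPM) and Lyz2 (0.680 and 0.2102 CPM) were not higher. The part of these differences in the results below was not tested, and in bulk RNA a change in the share of cells of a type and a change in RNA per cell cannot be told apart.

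The table itself limits which imprinted genes can be read. Among protein-coding genes that lie wholly inside a gene of the opposite strand in the GENCODE M21 annotation (GRCm38), 695 of 700 (99.3%) were listed at 0 in all libraries, and among those inside a gene of the same strand 467 of 507 (92.1%) were. Of protein-coding genes that overlap no other gene, 3316 of 11828 (28.0%) were listed at 0. Nearly the whole body of Igf2 (99.98%) lies under another annotated gene, Gm49394, which runs through it on the same strand and shares 62.8% of its exon bases. The counts of Igf2 therefore cannot be read as its level. For the other members, at most 8.60% of the gene body (H19) lies under another gene.

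Among the 10 genes, 8 passed the filter on low counts, and Igf2 and Mirg did not. In H19, Dlk1, Rtl1, Plagl1 and Grb10, all 3 miR-497 values lay above all 3 NC values, which held for 27.8% of all tested genes. In Peg3, Meg3 and Rian the groups overlapped, and no tested member had all its miR-497 values below all its NC values, against 29.6% of all tested genes. Nothing is read from these counts, since the members were chosen on this contrast.

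H19 (ENSMUSG00000000031, GRCm38 chr7:142575529-142578143, minus strand, annotated as a lincRNA) was the most abundant of the 10, leaving aside Igf2, whose level could not be read. Its levels were 1906, 2039.9 and 2068 CPM in NC libraries 1 to 3 and 3476, 3761 and 3584 CPM in miR-497 libraries 1 to 3. The lowest miR-497 library lay well above the highest NC library, and the spread within each group was small beside the gap. The mean went from 2005 ± 86.4 to 3607 ± 144 CPM (SD, n = 3). On the log2 scale the difference was 0.85 (SE 0.0613). The raw counts behind these levels were 58212 to 74481 with NC and 87358 to 119485 with miR-497, so counting error is small. H19 alone took 0.194% to 0.206% of all counts in the NC libraries and 0.339% to 0.372% in the miR-497 libraries. Ranked by CPM per kilobase of exon among 14644 tested genes with a length, it stood at places 20, 17 and 18 with NC and at places 11, 9 and 9 with miR-497. If reads in introns were counted too, the exon length does not match the counts, and these places are uncertain.

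**Figure D1:**
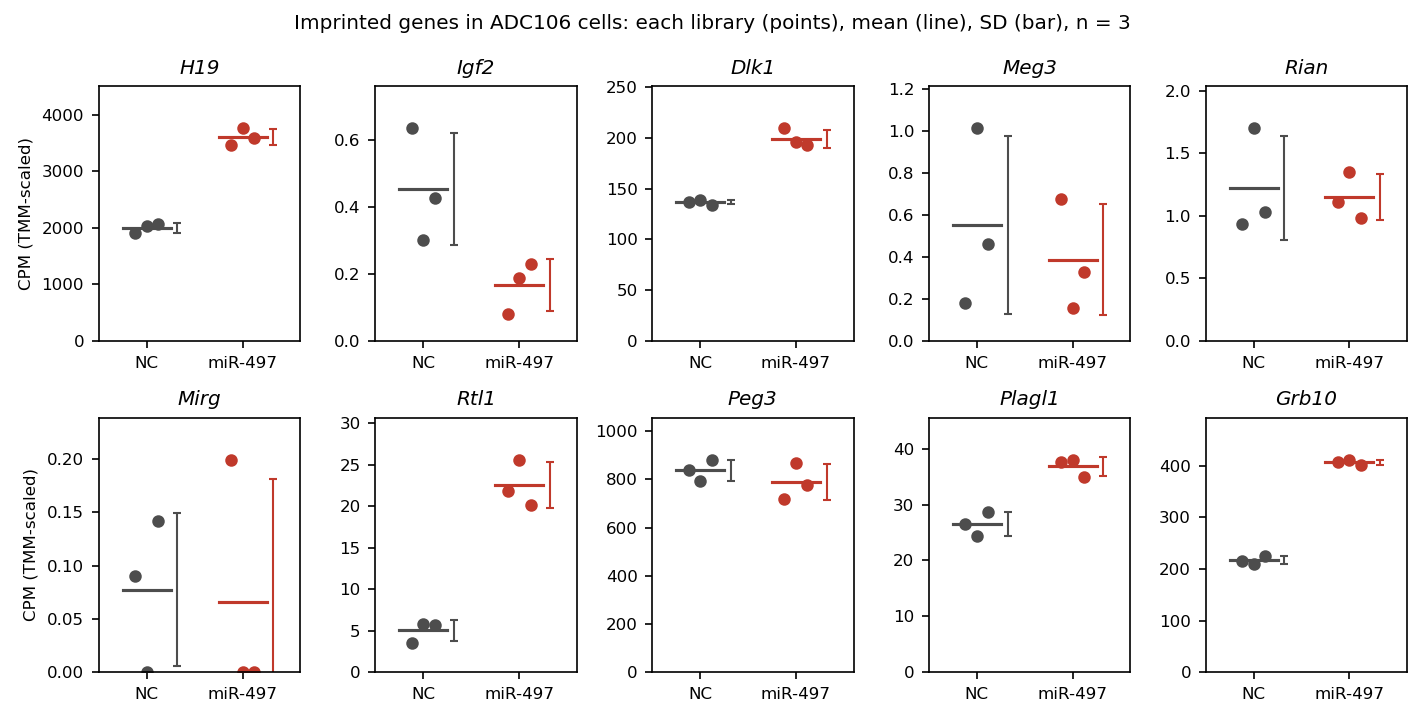
Level of each of the 10 imprinted genes in CPM (vertical axes, TMM-scaled, each from 0) for the NC and miR-497 groups; points are libraries, lines are means and bars are SD (n = 3). The points of H19, Dlk1, Rtl1, Plagl1 and Grb10 do not overlap between the groups, while those of Meg3, Rian and Peg3 do.

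Igf2 (ENSMUSG00000048583, chr7:142650766-142666816, minus strand, protein coding) had 21, 11 and 12 counts in the NC libraries and 2, 6 and 7 in the miR-497 libraries. The groups did not overlap, but the values are those left to a gene whose body is covered by another, and no fold change is drawn from them. Gm49394, the overlapping gene, had 64, 43 and 35 counts with NC and 26, 102 and 77 with miR-497. Igf2os, the antisense gene that covers part of Igf2, had 15, 30 and 26 counts with NC and 27, 50 and 41 with miR-497. Gm49394 lies under other genes over 100% of its body and Igf2os over 96.1%, so these counts cannot be read as levels either. Neither passed the test (edgeR adjusted p = 0.16 and 0.079), and nothing is drawn from that.

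In the Dlk1-Meg3 cluster, the coding genes Dlk1 and Rtl1 had higher CPM in every miR-497 library than in any NC library. Dlk1 (ENSMUSG00000040856, chr12:109452823-109463336, plus strand) had 137, 139 and 134 CPM with NC and 209, 196 and 193 CPM with miR-497. Its mean went from 137 ± 2.38 to 199 ± 8.82 CPM (SD, n = 3), with a log2 fold change of 0.54 (SE 0.0521). The groups did not overlap.

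Rtl1 (ENSMUSG00000085925, chr12:109589193-109600330, minus strand) showed the largest difference of the members. It had 119, 214 and 162 counts with NC, which are 3.59, 5.86 and 5.75 CPM, and 550, 812 and 614 counts with miR-497, which are 21.9, 25.6 and 20.1 CPM. Every miR-497 library was several times above every NC library. The mean went from 5.07 ± 1.28 to 22.5 ± 2.76 CPM (SD, n = 3), a ratio of 4.45. The log2 fold change was 2.15 (SE 0.156). Among all 14661 tested genes, 70 (0.477%) had a larger log2 fold change. Rtl1 was named in the choice as a gene that rose in this contrast, so nothing is read from this place. The strand setting of the counting was not given in the sources used here. Protein-coding genes wholly inside a gene of the opposite strand were listed at 0 in 99.3% of cases, against 28.0% of those that overlap no other gene. The table thus gives no sign that the strands were counted apart. Reads of the Rtl1 mRNA and of the antisense transcript that carries the microRNAs printed above cannot be told apart. The difference is therefore that of the row and cannot be assigned to the mRNA.

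The maternally expressed noncoding RNAs of the same cluster were close to the detection limit. Meg3 (ENSMUSG00000021268, chr12:109541001-109571726, plus strand) had 6, 37 and 13 counts with NC and 17, 5 and 10 with miR-497. The library values were mixed between the groups, and the log2 fold change of -0.56 had a larger standard error (0.640). It was 0.25 without NC library 2 and -1.19 without miR-497 library 1, so its direction is not determined. Rian (ENSMUSG00000097451, chr12:109603940-109661716, plus strand), a host of small nucleolar RNAs and microRNAs, had 31, 62 and 29 counts with NC and 28, 43 and 30 with miR-497, a log2 fold change of -0.09 (SE 0.363), which became 0.23 without NC library 2. Mirg (ENSMUSG00000097391, chr12:109729764-109749460, plus strand), in whose body RefSeq places 14 microRNA hairpins, had 3, 0 and 4 counts with NC and 5, 0 and 0 with miR-497. A count of 0 allows up to 3 counts, or 0.0830 to 0.100 CPM in the 3 libraries at 0 (per total counts, without TMM scaling). No difference in Mirg was detectable at this depth.

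Of the members outside these clusters, Grb10 and Plagl1 were higher in every miR-497 library, and the Peg3 values of the groups overlapped. Grb10 (ENSMUSG00000020176, chr11:11930508-12038683, minus strand) had 216, 210.3 and 225 CPM with NC and 408, 411 and 400.5 CPM with miR-497. Its libraries were tightly grouped, with means of 217 ± 7.31 and 406 ± 5.32 CPM (SD, n = 3) and a log2 fold change of 0.91 (SE 0.0512). Plagl1 (ENSMUSG00000019817, chr10:13060504-13131694, plus strand) had 26.6, 24.4 and 28.7 CPM with NC and 37.6, 38.0 and 34.9 CPM with miR-497. The groups did not overlap, and the log2 fold change was 0.47 (SE 0.0776). Peg3 (ENSMUSG00000002265, chr7:6703892-6730431, minus strand) had 838, 793 and 881 CPM with NC and 721, 870 and 776 CPM with miR-497. These values overlapped, and the log2 fold change of -0.09 (SE 0.0679) stayed between -0.16 and -0.03 under all alternatives.

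**Figure D2:**
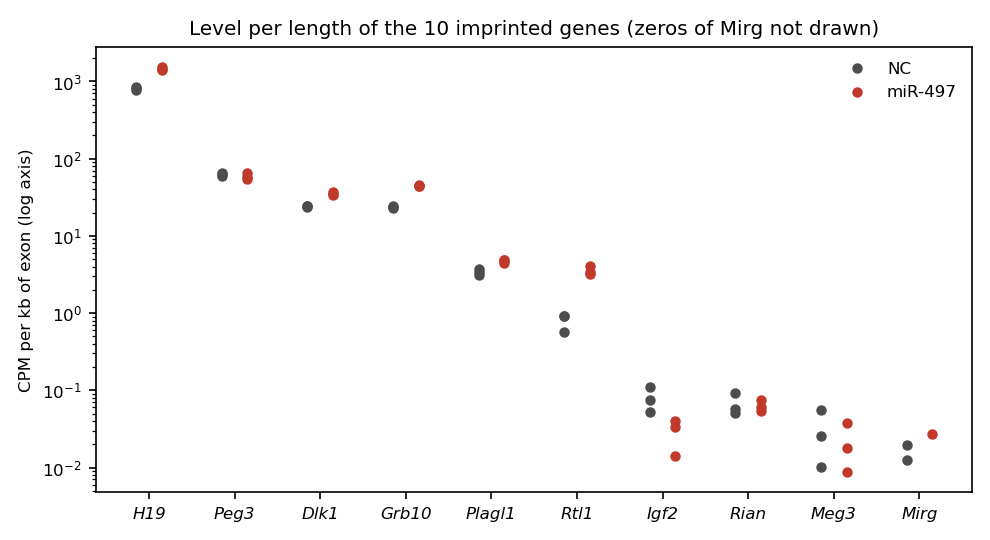
Level per length of the 10 imprinted genes in CPM per kilobase of exon (log axis) for each NC and miR-497 library; libraries with 0 counts of Mirg are not drawn. H19 stands above all others in both groups, Peg3, Dlk1 and Grb10 follow between 23.1 and 66.1, and Igf2, Rian, Meg3 and Mirg lie at or under 0.111. The points of Igf2 cannot be read as its level, since another gene covers its body.

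Levels of different genes were compared as CPM per kilobase of exon. Genes wholly inside another gene were nearly all listed at 0, so reads may have been counted over whole gene bodies, introns included. The exon length may then not match the counts, and this was not tested. With NC the order of the mean levels was H19 (815), Peg3 (62.9), Dlk1 (24.2), Grb10 (23.9), Plagl1 (3.40), Rtl1 (0.797), Igf2 (0.0793), Rian (0.0670), Meg3 (0.0305) and Mirg (0.0106). The libraries of Dlk1 and Grb10 overlapped, and so did the neighbouring pairs from Igf2 to Mirg, so these places are not resolved. The Igf2 values in both groups are those left to a gene covered by Gm49394, so its place in either order is not that of its level. With miR-497 the means were 1466 for H19, 59.2 for Peg3, 44.7 for Grb10, 35.2 for Dlk1, 4.71 for Plagl1 and 3.54 for Rtl1. Grb10 and Dlk1 no longer overlapped, and the levels of Rtl1 came close to those of Plagl1 without reaching them. Rian, Igf2, Meg3 and Mirg followed at 0.0631, 0.0290, 0.0214 and 0.00909. Using the length of the longest transcript in place of all exon bases exchanged Dlk1 with Grb10 and Igf2 with Rian in the NC order. In every library of both groups, the rows of Dlk1 and Rtl1 each had a higher level per length than those of Meg3, Rian and Mirg; the Rtl1 row can include reads of its maternal antisense transcript.

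The genes whose levels over the 6 libraries followed H19 most closely were Ampd3, Smg6, Fam129b, Lamtor5 and Erbin, with Pearson correlations of log2 CPM of 0.998 to 0.999 among 10333 genes compared. For Rtl1 they were Sympk, Golga3, Actr1a, Lrrc20 and Smarcc2, at 0.998 to 0.999. The 6 points of each correlation fall into the 2 groups, so the values describe mainly the step between them. Among the members, the correlation with H19 was 0.993 for Grb10, 0.990 for Rtl1, 0.975 for Dlk1 and 0.949 for Plagl1, and -0.38 for Peg3.

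Matches to the miR-497 seed were searched in the longest 3′ UTR of each coding member and in the longest transcript of each noncoding member, on the sense strand. A match to bases 2 to 8 of the microRNA is TGCTGCT. The other kind of match searched, to bases 2 to 7 and followed by A, is GCTGCTA. Where both fell together they were counted once. None was found in the 3′ UTRs of Dlk1, Rtl1 (976 bases), Peg3 or Grb10 (2955 bases), nor in Rian or Mirg. H19 had 1 match, Plagl1 1, Igf2 3 and Meg3 4, the last in a transcript of 14548 bases. The Igf2 matches at positions 1026 to 1032 and 1029 to 1035 overlap and were counted separately. Among tested genes with a 3′ UTR, 3617 of 12859 (28.1%) held at least 1 match in the longest one. The noncoding members were searched over whole transcripts, so this share is no background for them. The H19 match, the Plagl1 match and the longest Meg3 match are printed with the matched bases in capitals, since H19 and Plagl1 were higher with miR-497 while holding a match and Meg3 holds the only one of 8 bases. They start at positions 1523 of the H19 transcript, 339 of the Plagl1 3′ UTR and 6336 of the Meg3 transcript. A match is a run of letters and not a binding site that was measured here.
H19: cacttctcTGCTGCTctctggat
Plagl1: aaacatgaGCTGCTAttttgtaa
Meg3: ggtggggcTGCTGCTAcctgagtt

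Other imprinted genes moved in both directions. Of 52 listed in addition to the members, 34 were tested, 10 rose, 11 fell and 13 did not pass. Their median log2 fold change was -0.05, beside -0.02 over all tested genes. Which parental copy was expressed in these cells was not measured, so the parental classes named here and below are those of the lists. Among 11 tested genes listed as paternally expressed, 2 rose and 3 fell (18.2% and 27.3%). Among 23 tested genes listed as maternally expressed, 8 rose and 8 fell (34.8% each), beside 23.8% and 26.0% of all tested genes. The 8 rises were 5 without NC library 2, and 4 of the 8 falls were in genes with under 10% of the body under another gene. The share of falls among the tested genes under that limit was not worked out, so nothing is read from the 4. Of the 15 genes of these lists that were at 0 in all libraries, 10 lie wholly inside another gene.

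The paternally expressed Mest, an enzyme of the alpha/beta hydrolase fold, rose from 1150.2 to 1974 mean CPM (log2 fold change 0.78, SE 0.0599, edgeR adjusted p = 1.5e-08). Copg2, a coat protein gene that neighbours Mest, rose from 223 to 552 CPM (log2 fold change 1.31, SE 0.0509, edgeR adjusted p = 5.3e-12). Peg10, like Rtl1 derived from a retrotransposon, rose from 1276 to 1636 CPM (0.36 on the log2 scale, edgeR adjusted p = 0.00018). Usp29, which lies next to Peg3, fell from 36.4 to 27.8 CPM (log2 fold change -0.39, edgeR adjusted p = 0.00055), and Inpp5f, a phosphoinositide phosphatase, fell from 25.7 to 20.1 CPM (-0.36, edgeR adjusted p = 0.0016). Snrpn, a splicing protein gene of the Prader-Willi region, fell by 1.27 on the log2 scale (edgeR adjusted p = 0.001), with 15.25% of its body under other genes.

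Among genes listed as maternally expressed, Slc22a18, a membrane transporter of the distal chromosome 7 cluster, had the largest rise. It had 2, 3 and 1 counts with NC and 56, 50 and 60 with miR-497. Per total counts this is a ratio of 30.6, with an exact 95% counting interval of 13.8 to 84.7 (edgeR adjusted p = 7.7e-07). Ddc, the decarboxylase that makes dopamine and serotonin and the direct neighbour of Grb10, rose from 1.31 to 3.53 CPM (log2 fold change 1.43, SE 0.268, edgeR adjusted p = 0.00026), with 20.5% of its body under other genes. The place of Ddc on the maternal list is uncertain, and its rise is among those counted there. Asb4 (0.51) and Pon3 (0.32) rose by less (edgeR adjusted p = 7.6e-07 and 0.0053). Igf2r, the receptor that clears IGF2 from the cell surface, fell from 666 to 440 CPM (log2 fold change -0.60, SE 0.0827, edgeR adjusted p = 1.3e-05), with 32.5% of its body under other genes. Atp10a (-1.78), Commd1 (-1.05), Tfpi2 (-0.88) and Gatm (-0.68) fell as well, with edgeR adjusted p between 1.2e-08 and 2.7e-06. Commd1 is covered by other genes over 99.7% of its body, so its value is uncertain.

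**Figure D3:**
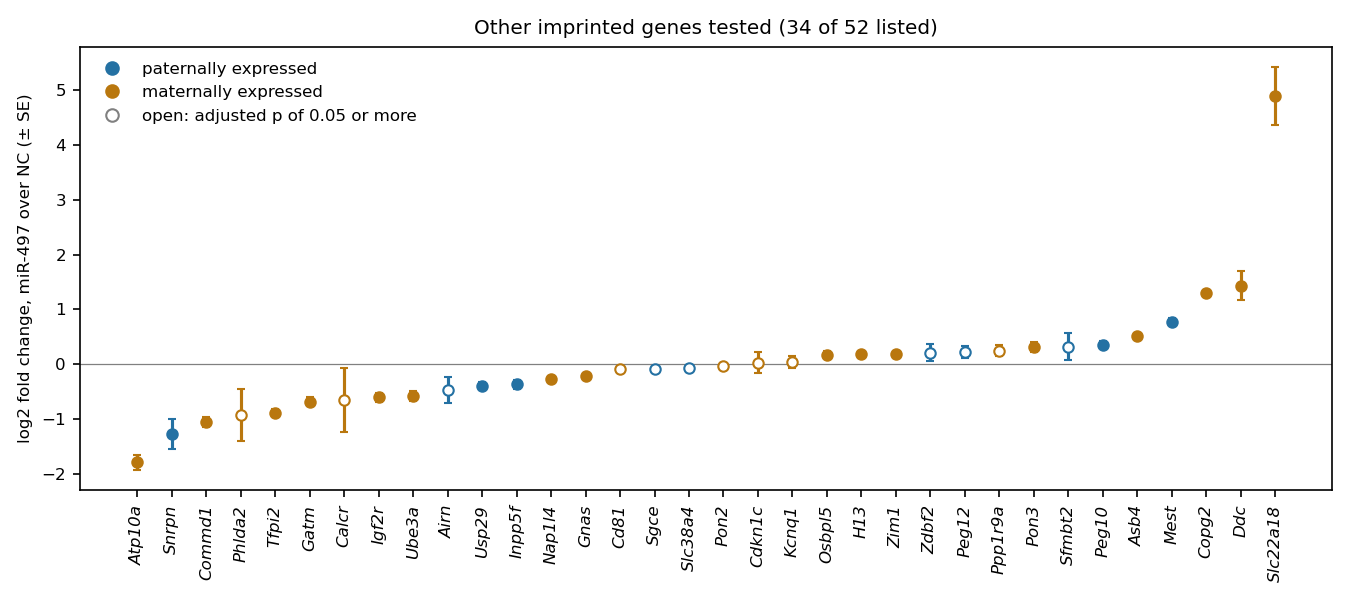
Log2 fold change, miR-497 over NC, with its standard error (vertical axis) for the 34 tested imprinted genes other than the 10 members. The genes are ordered from lowest to highest. Blue marks genes listed as paternally and orange those listed as maternally expressed, and open points did not pass an adjusted p of 0.05. The 10 genes that rose end with Slc22a18 at 4.89 on the right, and the 11 that fell begin with Atp10a at -1.78 on the left.

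Of 27 factors that set or maintain imprints, 23 were tested, 5 rose and 10 fell (21.7% and 43.5%, beside 23.8% and 26.0% of all tested genes). Of the 5 that rose, 3 had under 10% of the body under another gene, a count given without the share among such tested genes. Ctcf, which binds the H19 control region, had a log2 fold change of -0.03 (SE 0.0611) and did not pass (edgeR adjusted p = 0.73). Dnmt3b and Dnmt3a, which set DNA methylation, rose by 0.70 (SE 0.125) and by 0.63 (SE 0.0648) on the log2 scale (edgeR adjusted p = 0.00018 and 4.6e-07). Uhrf1, which recruits the maintenance methyltransferase, had a log2 fold change of -0.44 and the chromatin remodeller Hells one of -0.62 (edgeR adjusted p = 1.3e-05 and 4.6e-07). The zinc-finger proteins Zfp57 and Zfp445, which bind methylated imprint control regions, fell by 0.41 and by 0.53 (edgeR adjusted p = 0.00037 and 1.2e-05). Trim28, the corepressor they recruit, had the smallest rise (0.14, edgeR adjusted p = 0.024), which was lost in 6 of 13 alternatives, among them leaving out library 1 or 2 of either group (adjusted p 0.0017 to 0.11 over all 13). Tet3, an enzyme that oxidises methylcytosine, and Ehmt2, a histone methyltransferase, rose by 0.48 and 0.30, and Suz12, a subunit of Polycomb complex PRC2, fell by 0.50 (edgeR adjusted p = 5.3e-06, 0.00052 and 1.5e-06). No methylation was measured.

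Of 23 genes that act with the members' products, such as IGF receptors, IGF-binding proteins and RNA-binding proteins, 22 were tested, 7 rose and 7 fell (31.8% each, beside 23.8% and 26.0% of all tested genes); without miR-497 library 3, 4 rose. Of the receptors on the list, Insr fell from 59.2 to 32.03 CPM (log2 fold change -0.89, SE 0.0744, edgeR adjusted p = 4.5e-08) and Igf1r fell from 56.7 to 42.7 CPM (-0.41, SE 0.0683, edgeR adjusted p = 9.1e-05). Irs1, the substrate that docks to both, rose by 0.36 (edgeR adjusted p = 0.014), a call lost without NC library 2, miR-497 library 2 or miR-497 library 3 (adjusted p 0.0038 to 0.078 over 13 alternatives). The secreted IGF-binding proteins moved apart. Igfbp5 fell from 107 to 37.0 CPM (log2 fold change -1.52, SE 0.0796, edgeR adjusted p = 1.6e-10), while Igfbp7 rose from 109 to 170 CPM (0.64, SE 0.0546, edgeR adjusted p = 5.1e-08). Igfbp6 rose by 0.89 (edgeR adjusted p = 0.032) at low level, a call lost without library 1 or 3 of either group (adjusted p 0.0081 to 0.12 over 13 alternatives). Notch1, a receptor that Dlk1 is known to modulate, rose by 0.41 and Trp53 by 0.38 (edgeR adjusted p = 0.00021 and 2e-05). Khsrp and Igf2bp1, RNA-binding proteins known to bind H19 or Igf2 transcripts, fell by 0.24 and by 0.23 (edgeR adjusted p = 0.001 and 0.002).

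The genes around the clusters, within 500 kb on each side, were counted in the same way. Around H19-Igf2, 14 of 44 neighbours were tested, 5 rose and 1 fell (35.7% and 7.14%, beside 23.8% and 26.0% of all tested genes). Of the 5, 3 had under 10% of the body under another gene, again without the share among such tested genes. Tnnt3, a troponin of fast muscle, rose from 1.97 to 4.41 CPM (log2 fold change 1.16, SE 0.229, edgeR adjusted p = 0.00044), with 46.2% of its body under other genes and while the skeletal muscle markers as a whole summed to 8.44 and 9.34 mean CPM. Ifitm10 rose by 1.05, Lsp1, a leukocyte and endothelial cytoskeletal protein, by 0.62 and the mitochondrial ribosomal protein gene Mrpl23, the nearest tested gene to H19, by 0.46 (edgeR adjusted p = 0.00016, 0.013 and 0.0035). R74862 rose by 0.75 (edgeR adjusted p = 0.041), lost when any library but NC library 1 was left out (adjusted p 0.0036 to 0.12 over 13 alternatives). Dusp8, a phosphatase of stress kinases, fell by 0.28 (edgeR adjusted p = 0.047), lost in 12 of 13 alternatives, each other scaling, filter and tool included (adjusted p 0.013 to 0.19). Between these, the lysosomal protease gene Ctsd had a log2 fold change of 0.06 (SE 0.0560) and did not pass, with 55.7% of its body under other genes. Around Dlk1-Mirg, 2 of 10 neighbours were tested, Wdr25 and Begain, and neither passed (log2 fold changes 0.17 and -0.32, edgeR adjusted p = 0.60 and 0.63). Ctsd, Wdr25 and Begain were named after their values were seen.

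**Figure D4:**
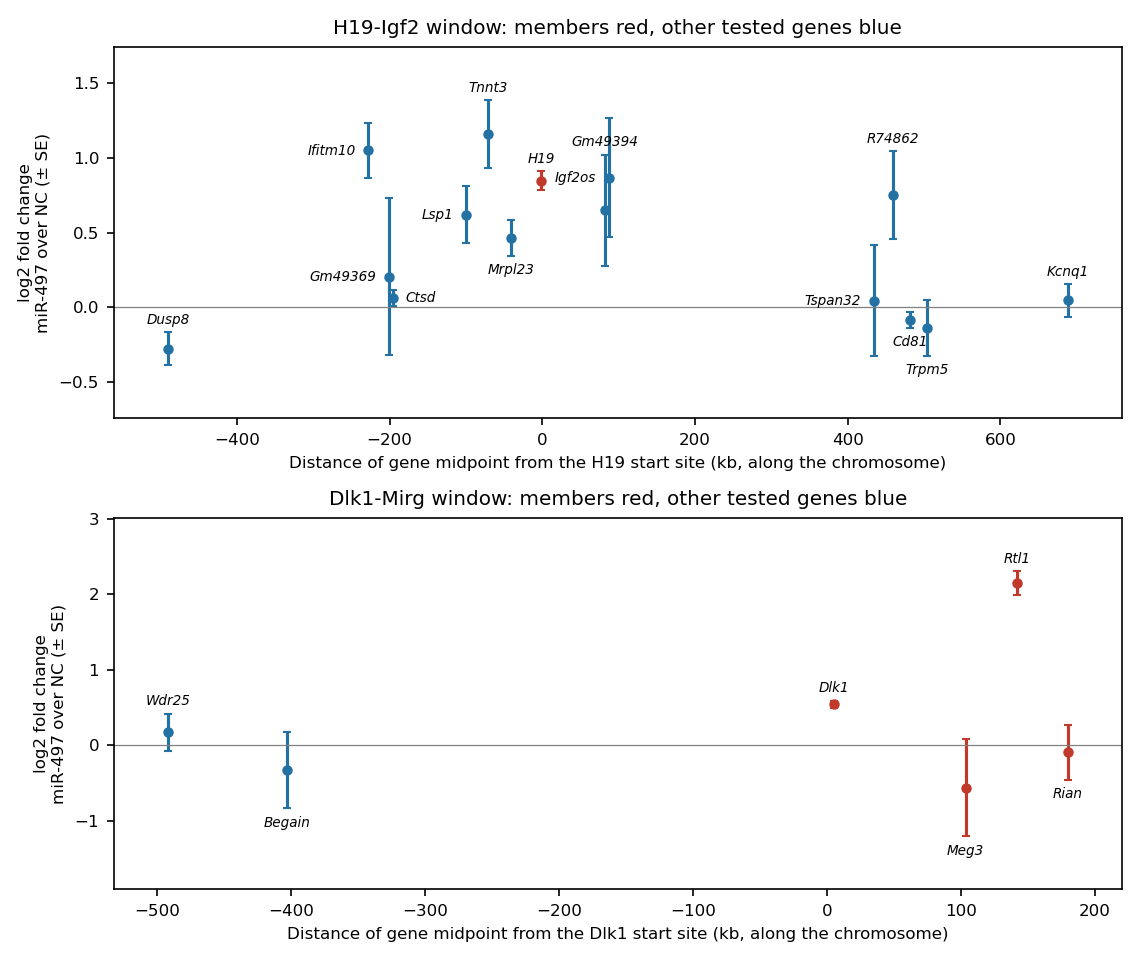
Log2 fold change, miR-497 over NC, with its standard error (vertical axis) against the distance in kilobases of each tested gene's midpoint from the H19 start site (top) or the Dlk1 start site (bottom); members are red and other tested genes blue. In the top panel H19 at 0.85 lies among Tnnt3, Lsp1 and Mrpl23, which rose; in the bottom panel Dlk1 at 0.54 and Rtl1 at 2.15 lie above Meg3, Rian and the other tested genes.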

How the data were processed

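The deposited table holds raw, unnormalized read counts for 55401 mouse Ensembl identifiers in 6 libraries. The submitters' processing notes name GRCm38, STAR 2.5.4b, featureCounts, Subread 1.6.1 and edgeR 3.32.1, without roles; the annotation release, strand setting and treatment of multiply aligned reads were not given in the sources used here. Groups and replicate numbers came from the sample titles. Symbols came from GENCODE M21, matching 55141 identifiers.

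Genes were filtered with filterByExpr (minimum count 10, minimum total 15), scaled by TMM and tested with the quasi-likelihood F-test of edgeR 4.0.16 (R 4.3.3), 2-sided, with the group as the only term. The adjustment was that of Benjamini and Hochberg over the 14661 tested genes (threshold 0.05). CPM refers to TMM-scaled libraries. The floor for 0 counts is 3 counts and covers counting error only. In CPM it is given per total counts, without TMM scaling.

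The members and lists were chosen with earlier results of these data known. Named genes were the members, the 5 largest rises and 5 largest falls among called genes of each list and of the neighbours, and the 5 genes most correlated with H19 and with Rtl1 (mean log2 CPM at least 2). Alternatives were other scalings, filters and tools (DESeq2 1.42.0, limma 3.58.1 voom), a replicate block and leaving out each library. A count limited to genes with under 10% of their body under another gene was added after seeing the data.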

Additional observations from a re-analysis of the deposited data

How the results depend on the processing

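Of 102 values of the 8 tested members under alternatives, 101 moved by less than 1 SD between replicates, which is wide for Meg3 and Rian: these changed sign (-1.19 to 0.25 and -0.26 to 0.23). Grb10 reached 0.95 with upper-quartile scaling. Among the named genes of the lists, 502 values kept their call and 30 lost it. The single fallen neighbour, Dusp8, gave a count of 0 with DESeq2 size factors, upper-quartile scaling, no filter, a mean count of at least 50, the DESeq2 Wald test and limma voom, and of 0 to 1 with a library left out. With a library left out, rises among maternally expressed genes numbered 5 to 8 (5 without NC replicate 2), rises among the members' partners 4 to 7 (4 without miR-497 replicate 3), and the log2 ratio of the summed epithelial markers, 0.18 in all libraries, ranged from -0.46 (without miR-497 replicate 1) to 0.42. Counting genes with under 10% of the body under another gene, added after seeing the data, left 4 falls among maternally expressed genes, 3 rises among imprint factors and 3 among neighbours. This tests fewer genes. The share among the tested genes left was not worked out, so these counts are not read as a loss. The causes of the other shifts were not tested.

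A replicate block gave 3177 higher and 3563 lower calls, 6691 of these 6740 being called without it too; it left 0 fallen neighbours. Correlations of same-numbered libraries' deviations were -0.12, -0.035 and -0.13, so the numbers are not taken as pairs. Depth limits Meg3, Rian and Mirg, and overlapping annotation limits Igf2.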
